A study of Mus musculus with 12 samples.

Results

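Transcripts of 40 enzymes of pyruvate entry, the citrate cycle and fatty acid beta-oxidation were examined in mouse progenitor cells that lacked Tafazzin and in wild-type cells. The 40 genes were taken by symbol, and all 40 were found among the 37583 gene rows of the deposited count files. The samples were 6 Taz knockout (KO) clones (3G, 3H, 3I, 4J, 4K, 4L) and 6 wild-type (WT) clones (1A, 1B, 1C, 2D, 2E, 2F). Both groups shared all else that the labels give. The cells were granulocyte-monocyte progenitors (GMPs) from fetal liver of C57BL/6 embryos at E15.5, each line grown from a single cell. All 12 carried a retroviral ER-Hoxb8 fusion, which blocks maturation while estradiol is present, and grew in estradiol and stem cell factor. Tafazzin remodels cardiolipin, the phospholipid of the inner mitochondrial membrane; how its allele was disrupted is not given in the sources used here. Neither the meaning of the digit that opens a clone name nor the number of embryos used is given in the labels. Should the digit stand for a common embryo or culture, the 3 clones with the same digit would not be separate replicates, and the p-values below would be too small.

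The citrate cycle runs in the mitochondrial matrix and strips acetyl-CoA of its electrons, which NADH and FADH2 carry to the respiratory chain. Acetyl-CoA comes from pyruvate through the pyruvate dehydrogenase complex, or from fatty acids, which enter mitochondria as carnitine esters and are shortened in repeated rounds of oxidation. Several of these enzymes lie on or near the cardiolipin-rich inner membrane, and proliferating progenitors also draw on the cycle for citrate, aspartate and NADPH.

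Taz was low in every knockout clone. It had 2.21, 3.39 and 4.08 counts scaled to library size (CPM; lowest, median and highest clone) in KO clones, against 37.1, 38.4 and 43.9 CPM in WT clones, with a log2 fold change of −3.54 ± 0.13 (SE; adjusted p = 5.68e-08, edgeR). Counts in genes totalled 18970252 to 23658158 per KO clone and 21966954 to 27431544 per WT clone. The GMP markers Mpo, Prtn3, Kit and Cd34 were expressed in all 12 clones. Individual clones stood apart. In WT clone 2D, 10 mature neutrophil markers summed to 1538 CPM, against 15.9 to 145 CPM in the other 11 clones. In KO clone 3G, 6 hepatocyte markers summed to 150 CPM, mostly Alb with 122.5 CPM, against 0.804 to 3.31 CPM in the others. Afp and Apoa2, of the same list, were not raised in 3G. Afp had 0.105 CPM in 3G and 1.40 CPM in 3I. Apoa2 had 0.999 CPM in 3G, against 0.703 to 1.55 CPM in the other clones. Markers of the B lineage summed to 1.89 to 3.05 CPM in KO clones and 5.34 to 62.9 CPM in WT clones. Sums overlapped for mast cell and basophil markers (2001 to 4691 CPM in KO, 1008 to 3813 CPM in WT), erythroid markers (5.39 to 17.4 CPM in KO, 5.11 to 46.0 CPM in WT) and stromal markers (88.0 to 135 CPM in KO, 63.3 to 141 CPM in WT). The stromal sum was almost all Pdgfrb. Col1a1, Col1a2 and Col3a1, of the same list, had at most 3.73 CPM in any clone. The part of these markers in the results on the enzymes was not tested, except where values without 2D and 3G are given.

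The promoters were read for the enzymes whose transcripts fell in KO clones, from RefSeq on GRCm38.p6, and the 3 that held a searched motif are shown. The motif letters stand in capitals: GCGCNNGCGC, a core read by nuclear respiratory factor NRF1, in Etfdh (chr3:79628718-79629017, minus strand) and Sucla2 (chr14:73552536-73552835, plus strand), and CCGGAAG, an ETS factor core, in Cpt2 (chr4:107923540-107923839, minus strand).
Etfdh: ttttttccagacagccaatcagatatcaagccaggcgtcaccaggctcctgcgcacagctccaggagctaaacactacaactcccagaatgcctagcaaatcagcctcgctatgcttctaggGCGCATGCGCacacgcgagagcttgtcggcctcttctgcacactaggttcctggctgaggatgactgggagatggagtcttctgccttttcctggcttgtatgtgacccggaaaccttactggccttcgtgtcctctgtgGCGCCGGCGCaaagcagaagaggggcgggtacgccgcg
Sucla2: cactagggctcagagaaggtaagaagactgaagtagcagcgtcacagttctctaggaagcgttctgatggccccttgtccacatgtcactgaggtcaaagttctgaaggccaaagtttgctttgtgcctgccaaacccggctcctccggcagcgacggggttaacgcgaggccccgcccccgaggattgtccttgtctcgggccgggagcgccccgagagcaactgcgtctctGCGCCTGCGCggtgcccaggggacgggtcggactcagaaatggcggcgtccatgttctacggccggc
Cpt2: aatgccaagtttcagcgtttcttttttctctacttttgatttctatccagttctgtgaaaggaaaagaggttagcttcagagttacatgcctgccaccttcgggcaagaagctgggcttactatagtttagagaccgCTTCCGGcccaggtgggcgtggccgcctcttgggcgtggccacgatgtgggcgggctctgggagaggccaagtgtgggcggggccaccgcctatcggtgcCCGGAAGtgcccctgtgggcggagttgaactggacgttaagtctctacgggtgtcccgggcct
On both strands, the NRF1 letters were in 4 of the 35 member promoters in the RefSeq table (Dld, Etfb, Etfdh and Sucla2), or 11.4%, against 6.23% of all 32851 promoters. The ETS letters were in 4 of 35 (Cpt2, Dlst, Idh3b and Idh3g), or 11.4%, against 8.86% of all. An E-box (CACGTG) was in the windows of Ogdh and Pcx, 5.71% of members against 7.15% of all. TGATGNAA, an ATF4-type element, was in that of Echs1, 2.86% against 3.97%. TNAAGGTCA, the letters of an estrogen-related receptor element, was in no member window and in 1.28% of all. None of these 5 words contains another, and a match describes the letters in a window, not a bound factor. The promoters of Fh1, Aco1 and Idh2 held none of the 5.

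Of the 40 genes, 39 passed the filter on low counts, and 6 of these fell in KO clones at an adjusted p under 0.05 (edgeR's quasi-likelihood test, adjusted over 11819 genes). They were Aco1, Fh1, Etfdh, Sucla2, Cpt2 and Idh2, and no member rose. That is 15.4% of members lower, against 3.94% of all genes tested, and none higher, against 3.99% of all genes. The log2 fold change was below 0 for 29 of the 39 members (74.4%), against 51.7% of all genes, and its median was −0.06, against −0.01 for all genes. An unadjusted p under 0.05 was found for 13 of 39 members and for 2806 of 11819 genes. KO and WT clones did not overlap for 5 members, Aco1, Fh1, Sucla2, Cpt2 and Etfdh, each lower in KO clones; 2.84% of all genes were lower without overlap.

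**Figure D1:**
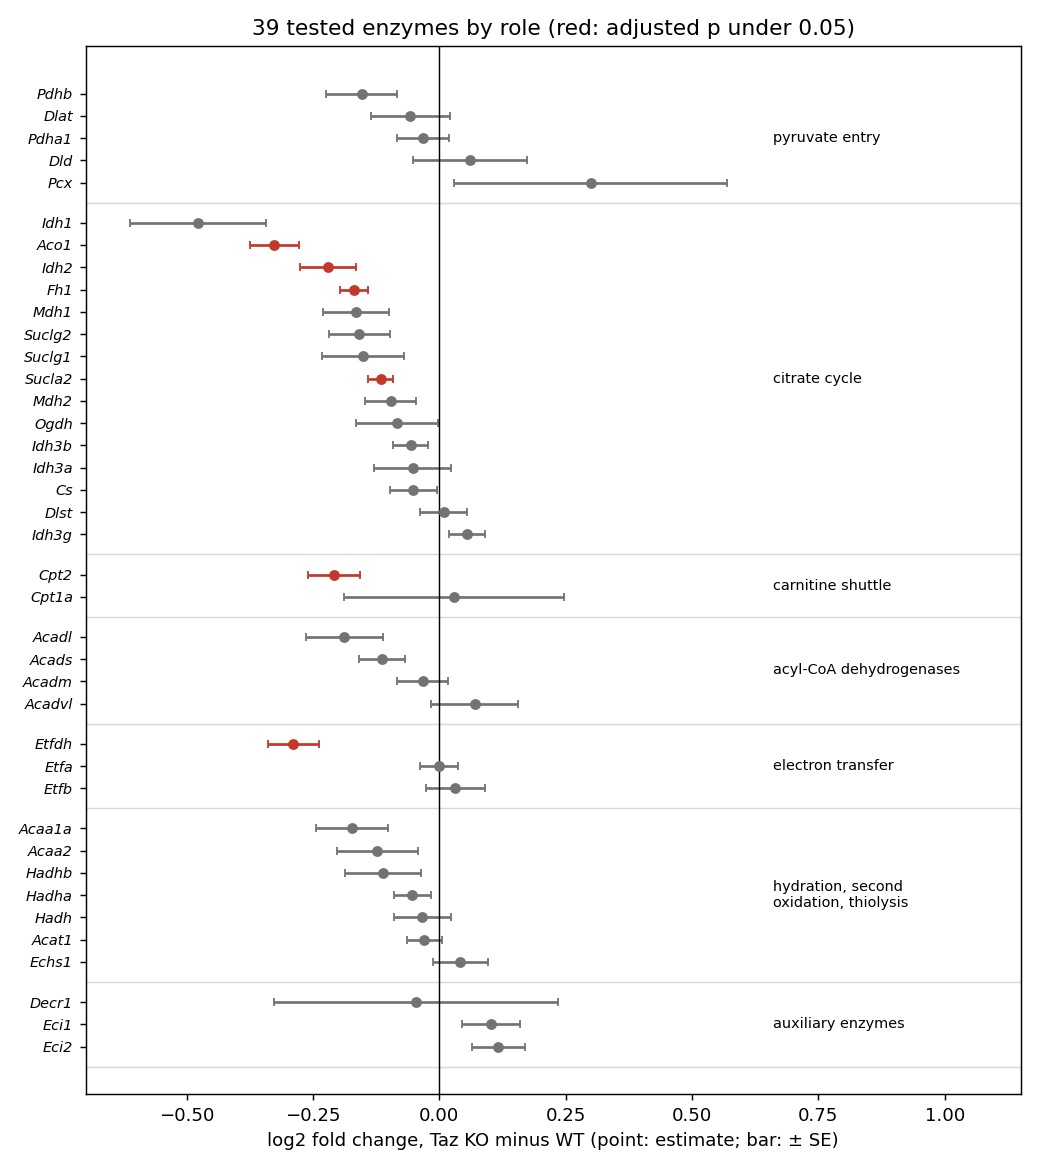
Log2 fold change of the 39 tested enzymes, KO minus WT, with the SE as bars, grouped by role and ordered within each role. The 6 called enzymes (red) lie between −0.33 (Aco1) and −0.12 (Sucla2); Idh1 lies farthest left at −0.48 and was not called.

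Added together, transcripts of all 40 enzymes came to 6600, 6825 and 6931 CPM (lowest, median, highest) in KO clones, against 7098, 7203 and 7362 CPM in WT clones. Every KO clone lay below every WT clone, with a mean 5.9% lower in KO. The 34 members that were not called summed to 5654 to 5977 CPM in KO clones and 6008 to 6232 CPM in WT clones, again without overlap. Taken separately, the pathways did overlap. Pyruvate entry and citrate cycle genes summed to 4352 to 4828 CPM in KO clones and 4677 to 5285 CPM in WT clones. Beta-oxidation genes summed to 2083 to 2248 CPM in KO clones and 1999 to 2421 CPM in WT clones. The sum of each role overlapped too. Idh1 and Idh2 had the largest differences of means, at −83.4 CPM for Idh1 and −77.5 CPM for Idh2, KO minus WT. Sums are a description, since abundant genes weigh most in them. In bulk RNA, fewer cells of a type and less RNA per cell cannot be told apart.

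The pyruvate entry genes showed no called change. Pdha1 and Pdhb encode the subunits of pyruvate dehydrogenase, Dlat the acetyl-transferring core and Dld the lipoamide dehydrogenase, which the oxoglutarate complex shares. Pdha1 had 338 to 369 CPM in KO clones and 312.9 to 391.9 CPM in WT clones, and Dlat 112 to 136 CPM in KO clones and 112 to 151 CPM in WT clones. Pdhb had the lowest fold change of the complex (−0.15 ± 0.07, adjusted p = 0.211 by edgeR); its counts are uncertain, as 71.2% of its transcript matches a pseudogene. Pcx, pyruvate carboxylase, which makes oxaloacetate from pyruvate, was the least expressed of the 5. It had 3.48, 4.31 and 9.25 CPM in KO clones, against 2.56, 3.58 and 5.65 CPM in WT clones. The highest value was that of KO clone 3G, the clone with hepatocyte transcripts, and the other KO clones had 3.48 to 4.62 CPM. The log2 fold change of Pcx was 0.30 ± 0.27 (adjusted p = 0.546, edgeR). It was 0.03 without 3G alone and −0.07 without 3G and 2D, the WT clone with the lowest value.

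The citrate cycle held 4 of the 6 falls, among 15 genes. Aco1 fell most. It encodes the cytosolic aconitase, which isomerizes citrate and, without its iron-sulfur cluster, turns into the RNA-binding iron regulatory protein IRP1. Aco1 had 64.9, 72.5 and 76.9 CPM in KO clones, against 84.8, 89.7 and 95.3 CPM in WT clones. All KO clones lay below all WT clones, and the log2 fold change was −0.33 ± 0.05 (adjusted p = 0.00244, edgeR).

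Fh1, fumarase, which hydrates fumarate to malate, had 180, 192 and 196 CPM in KO clones, against 208, 214 and 221 CPM in WT clones. The clones of each genotype were close together and did not overlap (log2 fold change −0.17 ± 0.03, adjusted p = 0.00431, edgeR). Sucla2 encodes the ADP-specific beta subunit of succinyl-CoA synthetase, the step that makes a nucleoside triphosphate. It had 110, 113 and 118 CPM in KO clones, against 120, 123 and 127 CPM in WT clones. This was the smallest of the called changes, −0.12 ± 0.03 on the log2 scale (adjusted p = 0.0176, edgeR), and the groups again did not overlap.

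Idh2 encodes the mitochondrial NADP-dependent isocitrate dehydrogenase, a source of matrix NADPH. It had 454, 464 and 494 CPM in KO clones, against 488, 550 and 622 CPM in WT clones. The groups overlapped between 488 and 494 CPM, and the log2 fold change was −0.22 ± 0.05 (adjusted p = 0.0316, edgeR). Idh2 was called in 6 of 12 fits that left out 1 clone; without 1B, 1C, 3G, 3I, 4K or 4L it was not, with adjusted p-values over all 12 fits of 0.0185 to 0.0704 (edgeR). Per kilobase of exon, Idh2 was the second most abundant member, with 182 CPM per kb in KO clones and 212 CPM per kb in WT clones. Etfb was above it (235 CPM per kb in KO, 229 in WT) and Mdh2 below it (139 in KO, 148 in WT).

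**Figure D2:**
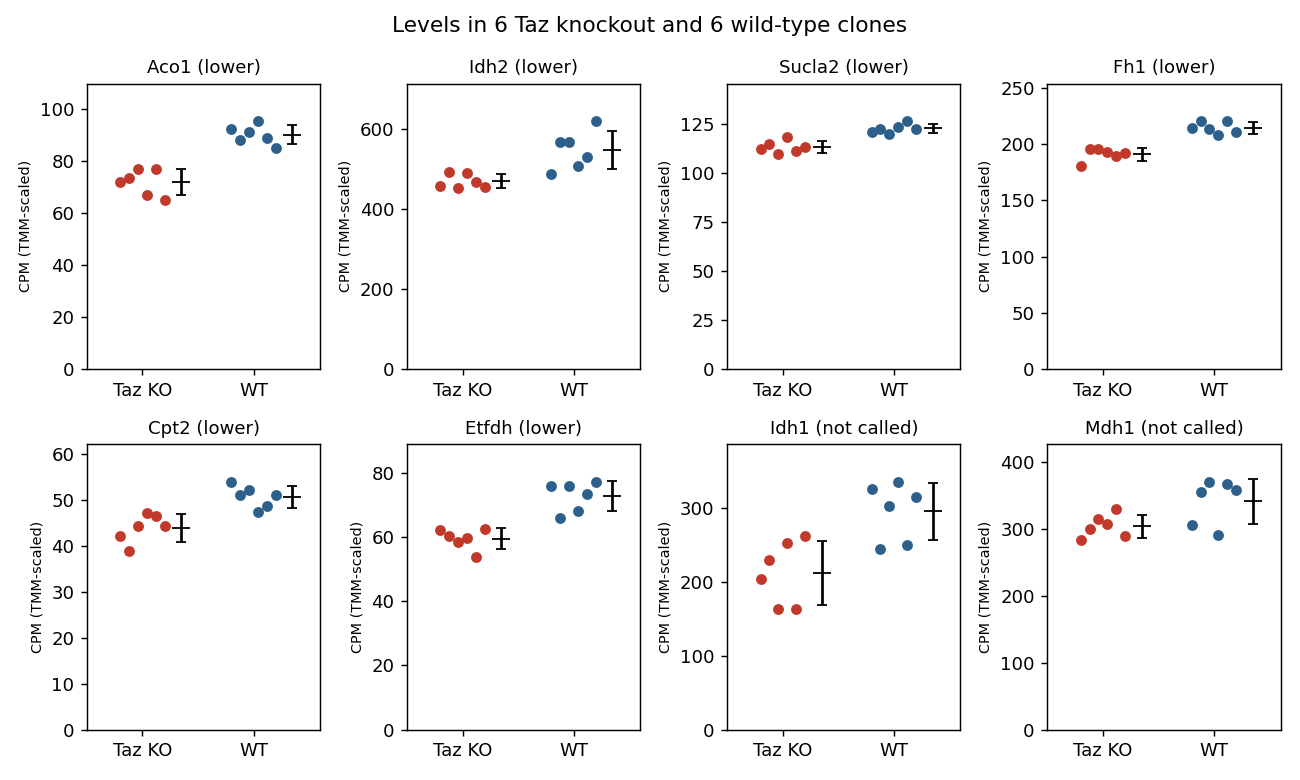
CPM after TMM scaling in each clone for the 6 called enzymes and for Idh1 and Mdh1, KO left and WT right; each point is a clone, and the black marks are the mean ± SD (n = 6). Aco1, Fh1, Sucla2, Cpt2 and Etfdh show no overlap of the genotypes, while Idh2, Idh1 and Mdh1 do.

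The largest fold change of all members was that of Idh1, the cytosolic counterpart of Idh2. Idh1 had 163, 216 and 262 CPM in KO clones, against 245, 309 and 336 CPM in WT clones. Its log2 fold change of −0.48 ± 0.13 missed the threshold narrowly (adjusted p = 0.0503, edgeR). It was called without 2E, 4J or 4L, and in no other fit that left out 1 clone (adjusted p 0.0394 to 0.102, edgeR). DESeq2 called it with an adjusted p of 0.00687; by that tool 7 members were lower, against 6.86% of all genes. The variation within each genotype was wide. Idh1 was lowest in 3I and 4K among KO clones, with 162.9 CPM in each, and in 1B and 2E among WT clones. The same clones had the lowest sums of 8 GMP markers in their genotype: 13900 CPM in 3I and 12710 CPM in 4K, against 19560 to 20450 CPM in the other KO clones, and 16890 CPM in 1B and 13680 CPM in 2E among WT clones. Mpo, a primary granule enzyme, carried most of that sum, with 6394 CPM in 3I and 5325 CPM in 4K, against 11570 to 12070 CPM in the other KO clones. Markers of the same list did not move together: Kit (800.7 CPM in 3I, 862.9 CPM in 4K) and Cd34 (2093 CPM in 3I, 2200 CPM in 4K) were highest in these clones among KO clones. The part of these markers in the result on Idh1 was not tested.

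The remaining citrate cycle genes did not pass the test. Mdh1, the cytosolic malate dehydrogenase of the malate-aspartate shuttle, had 284, 304 and 331 CPM in KO clones, against 291, 357 and 371 CPM in WT clones. The WT clones lay in 2 ranges, with 1A and 2D low, and the log2 fold change was −0.17 ± 0.07 (adjusted p = 0.15, edgeR). Mdh1 was called in 1 of 12 fits that left out 1 clone, the fit without 2D (−0.20). Adjusted p-values over all 12 fits were 0.0402 to 0.274 (edgeR). Suclg2, the GDP-specific beta subunit of succinyl-CoA synthetase, had 64.2, 70.1 and 80.0 CPM in KO clones, against 73.6, 78.8 and 87.4 CPM in WT clones. The groups overlapped and its fold change was −0.16 ± 0.06 (adjusted p = 0.133, edgeR); 38.7% of its transcript matches a pseudogene. Mdh2, the mitochondrial malate dehydrogenase, had 468 to 534 CPM in KO clones and 500 to 591 CPM in WT clones (−0.10 ± 0.05, adjusted p = 0.281, edgeR). Citrate synthase, Cs, which opens the cycle, had 418 to 480 CPM in KO clones and 444 to 520 CPM in WT clones. The 3 subunits of the NAD-dependent isocitrate dehydrogenase were close to 0 in fold change, at −0.05 for Idh3a, −0.06 for Idh3b and 0.05 for Idh3g. So were the oxoglutarate dehydrogenase genes Ogdh (−0.08) and Dlst (0.01). Suclg1, the shared alpha subunit of succinyl-CoA synthetase, was at −0.15 ± 0.08 (adjusted p = 0.288, edgeR).

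Of the carnitine shuttle, the inner enzyme fell. Cpt1a and Cpt1b join long-chain acyl groups to carnitine at the outer membrane, and Cpt2 returns them to coenzyme A inside. Cpt2 had 39.02, 44.4 and 47.2 CPM in KO clones, against 47.4, 51.1 and 54.1 CPM in WT clones. The highest KO clone, 4J, and the lowest WT clone, 2D, were almost level, with 47.18 CPM in 4J and 47.43 CPM in 2D. The log2 fold change was −0.21 ± 0.05 (adjusted p = 0.0309, edgeR), and the call was kept in 4 of 12 fits without 1 clone. It was lost without 1A, 1B, 1C, 2F, 3G, 3H, 3I or 4L (adjusted p over all 12 fits 0.0239 to 0.077, edgeR).

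Cpt1a, the form of most tissues, had 234, 264 and 371 CPM in KO clones, against 156, 321 and 353 CPM in WT clones, and its log2 fold change was 0.03 ± 0.22 (adjusted p = 0.955, edgeR). Its WT clones fell apart into 1A and 2D, with 171 and 156 CPM, and the other 4, with 310 to 353 CPM. The same pair had the lowest sums of 8 monocyte and macrophage markers (574 CPM in 1A and 550 CPM in 2D, against 977 to 1809 CPM in the other 10 clones), mostly through Ccr2 (361.6 CPM in 1A and 390.6 CPM in 2D, against 701 to 1775 CPM in the others). Ly6c2, of the same list, went the other way, with 179 CPM in 1A and 139 CPM in 2D, against 4.80 to 52.4 CPM in the other WT clones. The part of these markers in the levels of Cpt1a was not tested. Cpt1b, the muscle form, had 4 to 13 counts in KO clones and 5 to 12 counts in WT clones and did not pass the filter; 94.8% of its transcript is shared with the overlapping model Gm44502.

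The acyl-CoA dehydrogenases, which make the first oxidation and differ in chain length, had no called change among 4 genes. Acadl, for long chains, had 209, 237 and 279 CPM in KO clones, against 230, 275 and 304 CPM in WT clones (log2 fold change −0.19 ± 0.08, adjusted p = 0.156, edgeR). Acads, for short chains, had 115, 123 and 132 CPM in KO clones, against 123, 137 and 142 CPM in WT clones (−0.11 ± 0.05, adjusted p = 0.155, edgeR). Both pairs of groups overlapped. Acadm, for medium chains, was at −0.03, and Acadvl, the membrane-bound enzyme for very long chains, at 0.07; the counts of Acadvl are uncertain because Dvl2 overlaps it on the opposite strand.

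Electrons from these dehydrogenases pass through the flavoprotein of Etfa and Etfb to Etfdh, the inner membrane oxidoreductase that reduces ubiquinone. Etfdh fell, and its soluble partners were not called. Etfdh had 53.8, 60.1 and 62.6 CPM in KO clones, against 65.9, 74.6 and 77.3 CPM in WT clones. No KO clone reached the lowest WT clone, and the log2 fold change was −0.29 ± 0.05 (adjusted p = 0.00596, edgeR). Etfa had 117 to 134 CPM in KO clones and 120 to 132 CPM in WT clones, at a log2 fold change of −0.0007 ± 0.04. A pseudogene matches 17.5% of the Etfa transcript. Etfb had 240 to 295 CPM in KO clones and 248 to 298 CPM in WT clones (0.03 ± 0.06, adjusted p = 0.798, edgeR). Its counts are uncertain, since 70.1% of its transcript is shared with the overlapping model Gm45233. The difference in fold change between Etfdh and its partners was not itself tested.

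No gene of the later steps was called. Among the 7 genes of hydration, second oxidation and thiolysis, Acaa1a, the peroxisomal thiolase, was the only one with an unadjusted p under 0.05. It had 30.4, 31.6 and 32.2 CPM in KO clones, against 30.5, 35.8 and 40.6 CPM in WT clones. The groups overlapped, and every KO clone lay below the WT median (−0.17 ± 0.07, adjusted p = 0.161, edgeR), and 81.0% of the transcript matches Acaa1b. The trifunctional protein genes Hadha and Hadhb, which act on long chains at the inner membrane, were at −0.05 for Hadha and −0.11 for Hadhb; 69.7% of the Hadhb transcript matches pseudogenes. The thiolase Acaa2 was at −0.12, the short-chain hydroxyacyl dehydrogenase Hadh at −0.03, the ketothiolase Acat1 at −0.03 and the hydratase Echs1 at 0.04.

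The auxiliary enzymes, which rearrange double bonds of unsaturated acids, had the only positive median of the roles with 3 or more tested genes (0.10 on the log2 scale). The isomerase Eci2 had 46.6, 53.3 and 56.4 CPM in KO clones, against 44.9, 48.4 and 49.6 CPM in WT clones. The groups overlapped, and the change of 0.12 ± 0.05 did not pass (adjusted p = 0.197, edgeR). Eci1 was at 0.10 ± 0.06 (adjusted p = 0.308, edgeR). Decr1, the dienoyl-CoA reductase, was low in 1 clone of each genotype: KO clone 4J had 29.1 CPM, against 56.6 to 68.7 CPM in the other KO clones, and WT clone 2D had 20.2 CPM, against 63.4 to 71.7 CPM in the other WT clones. Its genotype difference was −0.05 ± 0.28.

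**Figure D3:**
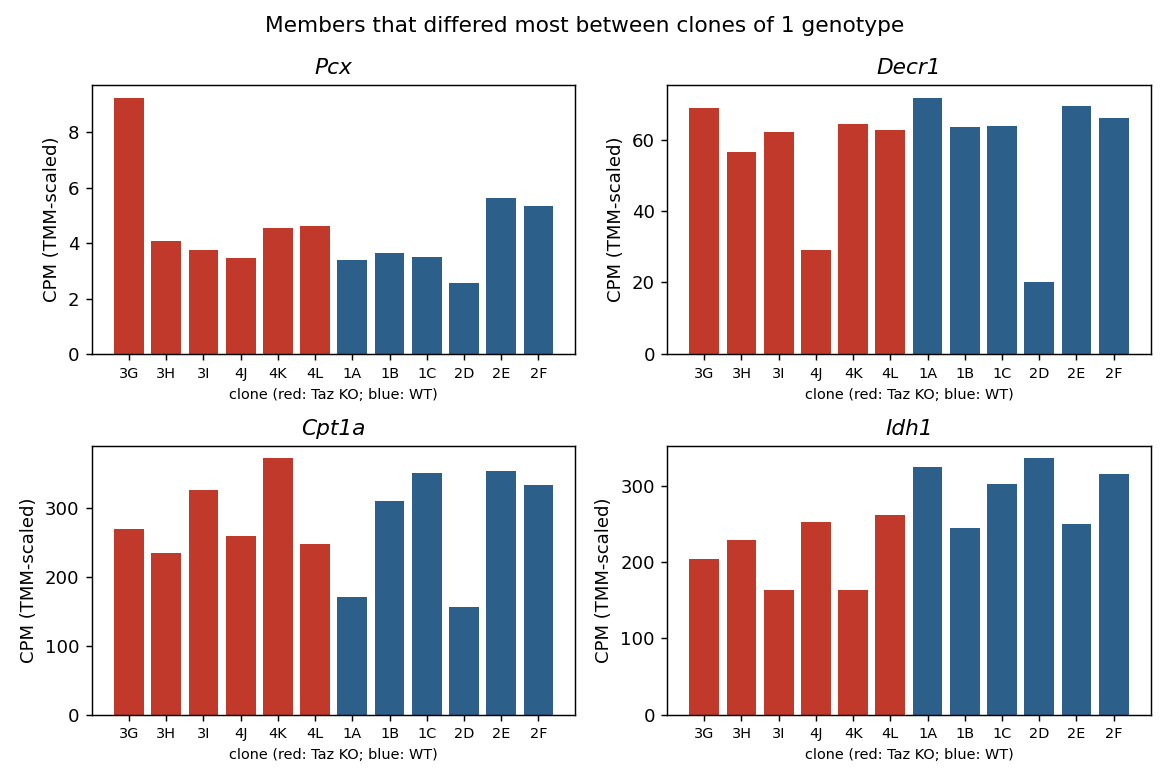
CPM after TMM scaling of Pcx, Decr1, Cpt1a and Idh1 in each clone, KO clones (red) left and WT clones (blue) right. Single bars stand apart, such as Pcx in 3G (9.25 CPM), Decr1 in 4J (29.1 CPM) and 2D (20.2 CPM) and Cpt1a in 1A and 2D.

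Clones of 1 genotype varied by a median coefficient of variation of 6.84% in KO and 7.11% in WT over the 39 members. Clone 2D held the highest value of 11 members and the lowest of 4. Of the KO clones, 4K held the lowest value of 7 members, and 3G, 3I and 4J of 6 each.

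**Figure D4:**
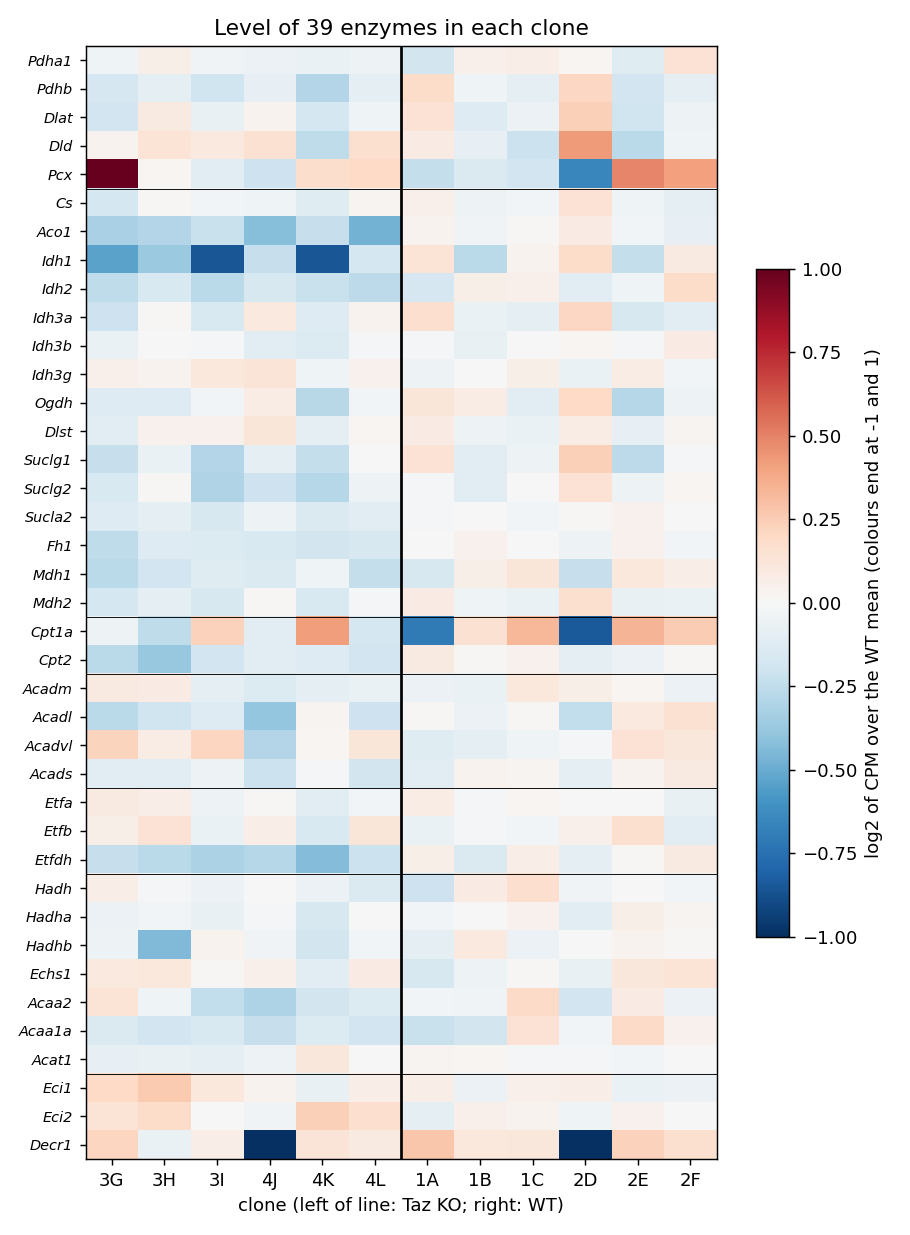
Level of the 39 tested enzymes in each clone as log2 of CPM over the WT mean, rows by role, KO clones left of the line and WT clones right. Aco1, Fh1 and Etfdh are below the WT mean in all 6 KO clones, while Pcx, Cpt1a and Decr1 change in single clones.

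The comparison was repeated between the numbers in the clone names. Aco1, Fh1, Etfdh, Sucla2 and Idh2 were below 0 with an unadjusted p under 0.05 in all 4 KO-minus-WT pairs of numbers (edgeR), and Cpt2 in 3 of 4. With 3 clones a side, Cpt2 was the only member called, in KO 3 minus WT 1, where 1.57% of all genes were called. The pairs share clones and are not independent. Inside a genotype, no member was called in KO 4 minus KO 3 (0% of all genes) or in WT 2 minus WT 1 (0% of all genes). An unadjusted p under 0.05 was found there for 3 members in KO (Eci1, Cpt2 and Acat1) and for 0 members in WT, against 244 of 11819 genes in the KO contrast and 416 of 11819 in the WT contrast. The median absolute log2 fold change of the members was 0.06 in the KO contrast and 0.03 in the WT contrast, against 0.09 to 0.11 in the 4 KO-minus-WT pairs. All genes had larger medians in each of these contrasts, 0.07 in the KO contrast, 0.08 in the WT contrast and 0.12 to 0.14 in the 4 pairs. With the counts of each number summed, leaving 2 samples a genotype, Etfdh alone was called, against 0.841% of all genes lower. With the number as a correlated block in voom, 11 members were lower, against 9.52% of all genes; the estimated correlation was −0.17.

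Balances between related enzymes did not pass a test. The log2 ratio of Idh2 to Idh1 averaged 1.18 ± 0.28 in KO clones and 0.90 ± 0.26 in WT clones (SD, n = 6 each; exact two-sided permutation p = 0.11, adjusted over 4 ratios 0.442). The ratio of Cpt2 to Cpt1a averaged −2.68 ± 0.22 in KO clones and −2.38 ± 0.54 in WT clones (exact p = 0.301, adjusted 0.565). The mitochondrial to cytosolic malate dehydrogenase ratio, Mdh2 to Mdh1, differed by 0.07 (exact p = 0.565, adjusted 0.565). The ratio of Sucla2 to Suclg2 differed by 0.04 (exact p = 0.459, adjusted 0.565). The smallest p this design can give is 0.00216.

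Other genes of the same pathways were counted from a list of 64. Of 54 that passed the filter, 7 fell in KO clones and none rose, or 13.0% lower, against 3.94% of all genes lower and 3.99% higher. Acly, which cleaves citrate to cytosolic acetyl-CoA, had 558, 597 and 678 CPM in KO clones, against 727, 753 and 822 CPM in WT clones. The groups did not overlap (−0.34 ± 0.05, adjusted p = 0.00207, edgeR). Me2, the mitochondrial malic enzyme, was at −0.17 ± 0.03, and Nnt, the proton-driven transhydrogenase that makes matrix NADPH, at −0.29 ± 0.05. Counts of Nnt are uncertain, as 47.4% of its exon length is shared with another same-strand entry named Nnt. Crat, carnitine acetyltransferase, was at −0.41 ± 0.08, and Sdhd, an anchor subunit of succinate dehydrogenase, at −0.20 ± 0.05. The other two were Pdp2 (−0.31 ± 0.08), which reactivates pyruvate dehydrogenase, and Acad8 (−0.17 ± 0.04), a dehydrogenase of valine breakdown.

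The largest fold changes among those not called were in genes with wide spread. Bdh1, of ketone body metabolism, had 17.7 to 89.9 CPM in KO clones and 73.4 to 105.9 CPM in WT clones (−0.76 ± 0.33, adjusted p = 0.182, edgeR). Ivd, of leucine breakdown, was near 0 in KO clone 4J (0.085 CPM) while its other KO clones reached 93.7 CPM; WT clones had 77.8 to 103.9 CPM. Decr2 was at 0.50 ± 0.23 and Pparg, a fatty-acid-sensing receptor, at 0.71 ± 0.81. The remaining 10 did not pass the filter. Among them, Ehhadh, a peroxisomal enzyme abundant in liver, had 6.2 CPM in KO clone 3G and at most 0.383 CPM in any WT clone.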

How the data were processed

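Per the labels, total RNA of 12 clones was sequenced. The deposited files hold raw read counts per Ensembl gene, 1 file a clone; the build was mm9 and the tools included STAR, HTSeq and edgeR, per the submitters' processing notes. The file names say that strand was not used, so reads of genes that overlap on opposite strands could not be told apart by strand. HTSeq set aside 1.53% to 1.65% of all records as ambiguous between genes. Among all records, 42.8% to 44.9% were aligned to more than 1 place, so near-identical genes are undercounted. The 5 HTSeq total lines were left out.

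The counts were tested with edgeR 4.0.16 (R 4.3.3): TMM scaling, filterByExpr by genotype, the quasi-likelihood F-test on genotype, and Benjamini-Hochberg adjustment over 11819 genes, with an adjusted p under 0.05 called. The SE is the absolute log2 fold change over the square root of F. CPM are TMM-scaled. P-values weigh the genotype difference against the spread between clones, which are taken as independent. Alternatives were RLE scaling, DESeq2 1.42.0, no filter, each clone left out, clones 2D and 3G left out, counts summed by the number in the clone name, and voom of limma 3.58.1 with and without that number as a block. The fits were tested on simulated data. Near-identical transcripts were found with blastn 2.17.0 in GENCODE M21, whose build is later than mm9; promoter windows are RefSeq GRCm38.p6.

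The members and all lists were chosen with earlier results of these data known. Named in full are members that were called or had an unadjusted p under 0.05, the 3 with most counts per kilobase, the 3 with the largest change and those that failed the filter; named among other pathway genes are those called and the 4 largest changes not called. Ehhadh was named after its values were seen. Some genes of the other pathway list are not reported here.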

Additional observations from a re-analysis of the deposited data

Results flagged for a closer look

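In 78 groups of 6 clones (39 enzymes in 2 genotypes), 5 held 1 clone far from the others by Dixon's criterion; chance gives about 1 in 20 groups. Pcx had 9.25 CPM in KO clone 3G, against 3.48 to 4.62 CPM in the other KO clones. Decr1 had 29.1 CPM in KO clone 4J, against 56.6 to 68.7 CPM in the other KO clones, and 20.2 CPM in WT clone 2D, against 63.4 to 71.7 CPM in the other WT clones. Pdha1 had 369.4 CPM in KO clone 3H, against 338.2 to 347 CPM in the other KO clones. Dld had 233.8 CPM in KO clone 4K, against 285 to 310.9 CPM in the other KO clones. In 3G, 6 hepatocyte markers summed to 150 CPM, and in 2D, 10 neutrophil markers summed to 1538 CPM. The part of either in these values was not tested.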

How the results depend on the processing

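The 6 members called lower became 1 with counts summed by the number in the clone name and 11 with that number as a block in voom; the cause was not tested. They were 7 with RLE scaling (453 of 11819 genes lower), 7 with DESeq2 (809 of 11793), 7 with voom (428 of 11819), 4 with no filter on low counts (280 of 22586), 5 without clones 2D and 3G (325 of 11826), and 4 to 7 with 1 clone left out (272 to 535 genes lower). No member was called higher in any of these. Aco1, Fh1, Etfdh and Sucla2 were called in all 12 fits with 1 clone left out. Among the 16 members named by rule, the sign turned for Pcx, to −0.074 without 2D and 3G and −0.10 in KO 4 minus WT 2, and for Etfb, to −0.023 in KO 4 minus WT 2; neither gene was called in any fit. Other uncalled members also turned sign in single pairs of numbers, such as Acadvl (0.07 over all clones, −0.12 in KO 4 minus WT 2) and Decr1 (−0.05 over all clones, 0.27 in KO 3 minus WT 2). Values were recomputed for these 16 members, Taz, the member counts and the ratios. Of them, 427 were classed as kept, 45 no longer passed the threshold, 12 newly passed it, 3 turned sign and 2 counts moved. A fold change or ratio classed as kept held its direction and its side of the threshold. For members lower, counts of 4 to 7 were classed as kept beside the main 6, and 1 and 11 as moved. No paired analysis was possible because KO and WT clones share no number in their names.

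Depth limits Cpt1b, at 4 to 13 counts a clone. A count of 0 allows 0.109 to 0.158 CPM by counting error only. Members with near-identical copies (Pdhb, Suclg2, Etfb, Hadhb, Acaa1a, Cpt1b) have uncertain counts. Shorter parts of the transcripts of Acadvl (26.1%), Pdha1 (18.5%), Etfa (17.5%) and Eci2 (11.1%) also match other genes. Their counts are uncertain to that extent.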
